A study of Mus musculus with 26 samples.

Results

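The 7 genes described here encode transcription factors of the circadian clock and, in Cry1 and Cry2, proteins that inhibit them: Arntl (its product is BMAL1), Npas2, Clock, Nfil3, Cry1, Cry2 and Rora. They were chosen by name, and all 7 were found among the 21031 genes that the authors kept in their normalized table. BMAL1 pairs with CLOCK or with its paralog NPAS2, and the pair binds E-box elements and turns on the Per, Cry, Nr1d1, Nr1d2 and Dbp genes. PER and CRY proteins then inhibit the pair, the nuclear receptors encoded by Nr1d1 and Nr1d2 repress Arntl through ROR elements, RORA activates it through the same elements, and NFIL3 represses genes with a D-box that DBP, TEF and HLF activate. Cry1, Cry2 and Nfil3 thus encode repressors, although they stand here beside the activators. In arteries, clock genes are known for daily rhythms of transcript level and for their bearing on vascular tone.

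Expression was measured by sequencing of polyadenylated RNA from mesenteric arteries (male mice, 8 weeks old), giving 26 libraries in 8 groups. The knockout line had 3 libraries of genotype Panx1 KO (global) and 3 of genotype WT. Each point-mutant line had its own controls: 3 Y198F+/+ and 3 Y198F-/- libraries, 4 S205A+/+ and 4 S205A-/- libraries, and 3 Y308F+/+ and 3 Y308F-/- libraries, where the controls are the -/- genotypes. The controls are described as littermate or wild-type animals, no other allele or treatment is stated, and the design text states 3 vascular trees per genotype, fewer than the 4 libraries found for S205A and for its controls. Panx1 encodes pannexin 1, a membrane channel that releases ATP, and each point mutation replaces a residue that can be phosphorylated. The hour of tissue collection, on which transcripts of clock genes depend, is not given in the sources used here.

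Total counts, rounded to 6 digits, ran from 14896000 to 23617900 per library. In 9 libraries the library number begins with 22 (called the 22 series here): Y198F 1 to 3, S205A controls 1 to 3 and S205A 2 to 4. No source used here says what this number means. Ribosomal RNA genes, with the mitochondrial ones left out, took 0.0831% to 0.139% of the counts in these 9 and 2.32% to 7.09% in the other 17. No Y198F control belongs to the 22 series, so in the Y198F comparison an effect of the mutation and one of the series cannot be told apart. Panx1 had 11 to 27 counts in the knockout libraries and 61 to 96 in the wild-type ones, and the deleted part of the gene is not given in the sources used here. S205A control 1, with 16 Panx1 counts, lay inside the knockout range. The smooth muscle markers Acta2, Myh11, Cnn1, Tagln and Smtn were detected in every library. Their sum ran from 18338 to 38145 CPM (the usual depth-normalized count, here with TMM factors over the 26 libraries). In each of 30 replicate pairs the counts differed beyond sampling noise (chi-square divided by its degrees of freedom 13.6 to 142). Where no source says that libraries of a group came from separate animals, p-values measure only the spread between these libraries.

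On the mouse build GRCm39, Arntl lies on the plus strand at chr7:112806152-112914735, Npas2 on the plus strand at chr1:39232705-39402323 and Clock on the minus strand at chr5:76342860-76452846. Nfil3 lies on the minus strand at chr13:53121245-53137010 and Rora on the plus strand at chr9:68561068-69295528. The cryptochrome genes lie on minus strands, Cry1 at chr10:84967560-85021252 and Cry2 at chr2:92233894-92264474. Cry1 shares exon bases with no other gene, whereas the other 6 members share some with genes on the opposite strand, in the case of Clock with the coding gene Tmem165. Whether counting used the strand is not given in the sources used here, so values of those 6 can include reads of the opposite gene.

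The RefSeq promoter table (build GRCm38.p6, windows of 300 bases, 250 before a start and 50 from it) held 10 windows for the 7 members, and each matched GRCm39 exactly once. The windows below are shown because they belong to the 3 genes that varied most among libraries and to the 2 cryptochromes, whose products inhibit the BMAL1 pair. Capitals mark matches, on either strand, to the E-box CACGTG, to its variant CACGTT (read as AACGTG on the other strand), to the RORE, or to the short AGGTCA element (read as TGACCT on the other strand) that the RORE contains. They are written 5′ to 3′ in the direction of transcription, at chr7:112806468-112806767 for Arntl (the downstream one of 2 windows), chr1:39233103-39233402 for Npas2, chr13:53135026-53135325 for Nfil3, chr10:85020869-85021168 for Cry1 and chr2:92264365-92264664 for Cry2, on the strands given above.
Arntl promoter: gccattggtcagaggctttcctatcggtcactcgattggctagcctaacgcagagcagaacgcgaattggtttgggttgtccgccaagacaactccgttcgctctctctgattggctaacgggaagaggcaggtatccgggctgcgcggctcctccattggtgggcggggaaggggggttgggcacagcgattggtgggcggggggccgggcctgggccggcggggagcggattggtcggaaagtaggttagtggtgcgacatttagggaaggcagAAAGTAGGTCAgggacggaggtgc
Npas2 promoter: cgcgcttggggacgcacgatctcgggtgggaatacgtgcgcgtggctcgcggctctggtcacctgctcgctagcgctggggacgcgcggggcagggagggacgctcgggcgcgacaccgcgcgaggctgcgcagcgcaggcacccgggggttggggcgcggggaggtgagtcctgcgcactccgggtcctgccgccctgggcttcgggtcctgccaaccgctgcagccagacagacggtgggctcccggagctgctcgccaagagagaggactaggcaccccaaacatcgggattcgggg
Nfil3 promoter: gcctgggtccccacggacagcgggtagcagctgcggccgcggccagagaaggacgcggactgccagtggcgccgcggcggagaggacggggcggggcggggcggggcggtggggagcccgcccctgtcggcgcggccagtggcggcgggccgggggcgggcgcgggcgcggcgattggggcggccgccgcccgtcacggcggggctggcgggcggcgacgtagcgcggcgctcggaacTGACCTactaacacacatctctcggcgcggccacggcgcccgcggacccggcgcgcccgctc
Cry1 promoter: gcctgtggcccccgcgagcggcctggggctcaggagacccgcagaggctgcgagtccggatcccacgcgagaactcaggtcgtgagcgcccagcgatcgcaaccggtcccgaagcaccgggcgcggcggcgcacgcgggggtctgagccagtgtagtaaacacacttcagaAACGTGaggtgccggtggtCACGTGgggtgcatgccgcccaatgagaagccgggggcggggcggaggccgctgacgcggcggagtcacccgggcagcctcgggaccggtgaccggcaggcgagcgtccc
Cry2 promoter: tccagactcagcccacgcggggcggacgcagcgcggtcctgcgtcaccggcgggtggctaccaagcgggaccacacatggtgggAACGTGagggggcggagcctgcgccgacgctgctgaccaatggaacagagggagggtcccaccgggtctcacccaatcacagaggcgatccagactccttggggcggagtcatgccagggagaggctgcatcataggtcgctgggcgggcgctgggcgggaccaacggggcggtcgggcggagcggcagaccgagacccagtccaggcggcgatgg

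With the first base from the start counted as 1, the Arntl window held the RORE AAAGTAGGTCA from base 27 to 37, a motif found in 0.384% of the 32841 windows in the table. The Cry1 window held CACGTG from base -60 to -55 and AACGTG from -79 to -74, and the Cry2 window held AACGTG from -166 to -161. CACGTG was found in 7.15% and CACGTT in 4.69% of all windows. The Nfil3 window held TGACCT from base -12 to -7, and 1 of the 3 Clock windows held it too, against 16.3% of all windows with AGGTCA. The Npas2 and Rora windows held none of these motifs. The D-box TTANGTAA was in none of the 10 member windows and in 2.32% of all windows. Such matches are letters in a window only and say nothing of binding.

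Among the 26 libraries 3 of the 7 genes varied widely, 3 varied less than the median gene and Cry1 lay between. The partner genes Arntl and Npas2 varied most. Arntl ran from 1.44 CPM in wild-type library 3 to 68.5 CPM in Y308F 3, with a median of 17.9 CPM, a 47.6-fold range. Npas2 ran from 1.27 CPM in Y308F control 3 to 54.0 CPM in Y308F control 1, with a median of 14.2 CPM. Nfil3, the repressor of D-box genes, ran from 1.05 CPM in Y308F 1 to 24.6 CPM in Y308F 3, with a median of 5.54 CPM. The lowest values rest on few reads: 28 counts for Arntl, 23 for Npas2 and 20 for Nfil3.

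Clock, the other partner of BMAL1, ran only from 50.3 to 137 CPM, a 2.72-fold range. Cry1 ran from 7.40 to 29.9 CPM and Cry2 from 36.4 to 77.4 CPM, ranges of 4.04-fold and 2.13-fold. Rora, the activating nuclear receptor, had the narrowest range of the 7, from 44.0 to 79.8 CPM. The median range over the 18715 genes tested was 2.93-fold, so Clock, Cry2 and Rora varied less over all libraries than the median gene.

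**Figure D1:**
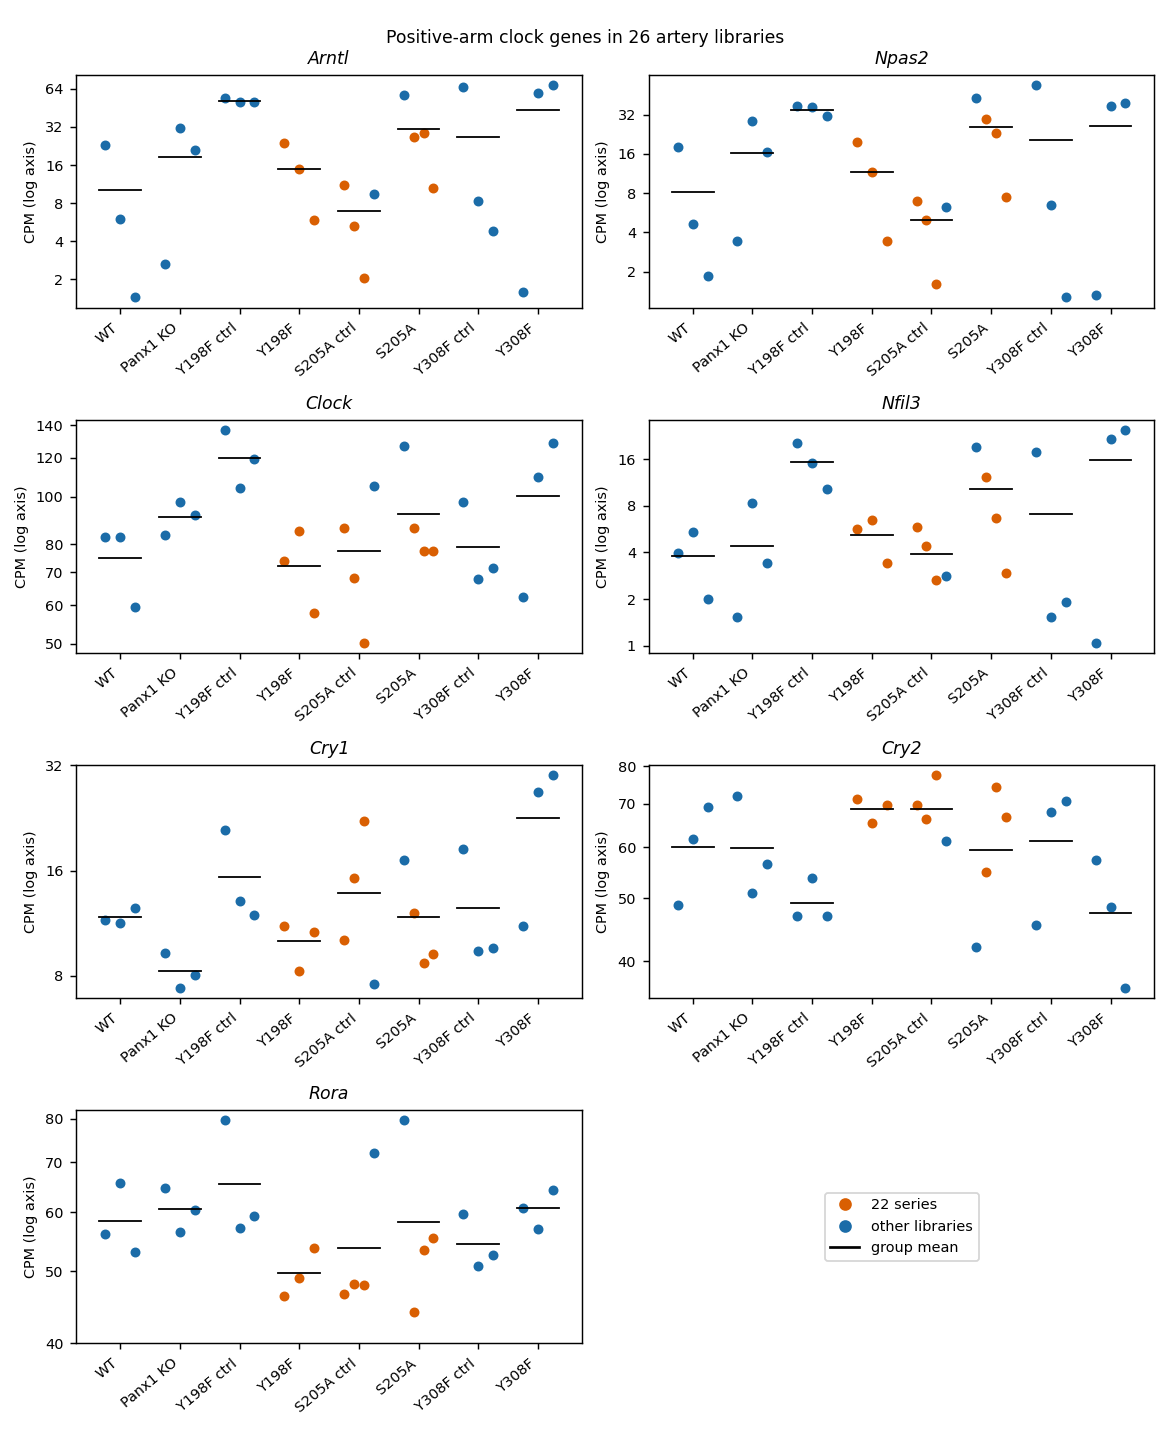
Levels of the 7 genes in each of the 26 libraries, as CPM on a log axis, by group. Each point is 1 library, coloured by whether its library number begins with 22, and each line is the group mean. Arntl, Npas2 and Nfil3 spread from near 1 CPM to over 20 CPM inside the Y308F group, whereas Rora stayed between 44.0 and 79.8 CPM in all groups.

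The wide range lay inside groups of one genotype. The pooled SD of log2 CPM within groups was 1.66 for Arntl, 1.65 for Npas2 and 1.28 for Nfil3. Of all tested genes, 99.8% had a within-group SD no larger than that of Arntl or of Npas2, and 97.9% had one no larger than that of Nfil3. The SD of Cry1 was 0.487, that of Clock 0.346, that of Cry2 0.259 and that of Rora 0.227, against a median of 0.348 over all genes. The Y198F controls were the exception for Arntl, which stood at 54.56, 49.99 and 49.98 CPM in them, whereas the Y308F libraries stood at 1.57, 59.8 and 68.5 CPM. Among the 3 Y308F controls, control 1 stood at 66.1 CPM of Arntl and the others at 8.39 and 4.79 CPM. Within Y308F and within its controls, libraries thus differed more in Arntl than the means of any pair of compared groups. In the Y198F line it was otherwise. There the mean CPM, 15.0 in Y198F and 51.5 in the controls, lay further apart than the libraries of either group.

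**Figure D2:**
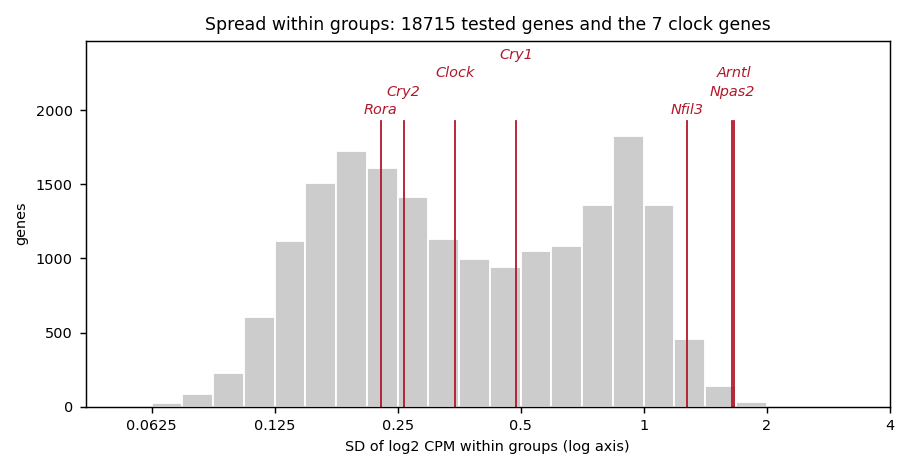
Histogram of the pooled within-group SD of log2 CPM over 18715 tested genes, on a log axis, with the 7 genes marked by lines. Arntl (1.66), Npas2 (1.65) and Nfil3 (1.28) lie in the right tail, and Clock, Cry1, Cry2 and Rora lie between 0.227 and 0.487.

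Ordered by mean log2 CPM, Arntl was lowest in the S205A controls, followed by wild type, Panx1 KO, Y198F, the Y308F controls, Y308F, S205A and the Y198F controls. Its means in that order were 6.96, 10.2, 18.4, 15.0, 26.4, 43.3, 30.9 and 51.5 CPM, with SDs of 4.12, 11.3, 14.6, 9.07, 34.4, 36.4, 19.6 and 2.64 CPM (n = 3, or 4 in the S205A line). All 7 neighbouring pairs of groups in this order overlapped in their library values, and the same held for each of the other 6 members. Neighbours in an order by mean are close by construction, so this says nothing of groups further apart. Arntl, for example, ran from 2.05 to 11.2 CPM in the S205A controls and from 49.98 to 54.6 CPM in the Y198F controls. The Y198F controls also had the highest mean CPM of Npas2 (35.02 CPM ± 3.43, SD, n = 3), Clock (120.1 CPM ± 16.3, SD, n = 3) and Rora (65.3 CPM ± 12.5, SD, n = 3). For Nfil3 they were highest in mean log2 CPM (3.89 against 3.09 in Y308F) but not in mean CPM (15.2 CPM ± 5.07 against 15.7 CPM ± 12.8, SD, n = 3 each). Cry1 was highest in Y308F (22.6 CPM ± 10.1, SD, n = 3). Cry2 was highest in Y198F (68.8 CPM ± 3.10, SD, n = 3).

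Levels of different genes were compared per kilobase of exon. Per kilobase of the union of exons, Cry2 had the highest mean (6.95 CPM per kb) and Nfil3 the lowest (1.64 CPM per kb). Clock had 5.11, Rora 3.97, Npas2 3.34, Cry1 2.66 and Arntl 2.15 CPM per kb as means over the 26 libraries. This order depends on the length used: per kilobase of the longest transcript Arntl had 5.31 CPM per kb, above Rora (5.21), Npas2 (4.16) and Cry1 (3.49). Npas2 exceeded Clock on this scale in 5 libraries, and with the longest transcript as length in 1. Cry1 exceeded Cry2 only in Y308F 3, and with the longest transcript in none. Clock and Cry2 were therefore the more abundant partner of their pairs in most libraries under either length.

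The knockout comparison asks what loss of the channel changes. None of the 7 genes passed an edgeR adjusted p-value under 0.05 (quasi-likelihood test), a threshold that 5 of 16193 genes passed (0.0309%), and DESeq2 called none of the 7 either. Panx1 itself, the deleted gene, did not pass this edgeR test either (log2 fold change -2.17, SE 0.388, edgeR adjusted p 0.2496). Failing the threshold in this comparison therefore does not show that a gene was unchanged. Of the 7 members, Cry1, the cryptochrome with both E-box matches above, came closest. It stood at 9.31, 7.40 and 8.04 CPM in the knockout libraries and at 11.5, 11.4 and 12.5 CPM in the wild-type ones, so the knockout libraries all lay below. Its log2 fold change was -0.50 (SE 0.169), with an edgeR p of 0.0160 and an adjusted p of 0.368. It was the only member with an unadjusted p under 0.05, against 11.2% of all genes.

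Clock stood at 83.4, 97.3 and 91.7 CPM in the knockout and at 82.7, 82.9 and 59.6 CPM in wild type, again without overlap. Its log2 fold change was 0.30 (SE 0.139, adjusted p 0.467 in edgeR). Groups did not overlap in 2 of the 7 members, and in 18.8% of all genes. Arntl stood at 2.65, 31.5 and 21.0 CPM in the knockout and at 22.99, 6.04 and 1.44 CPM in wild type. Those ranges overlapped widely, and the log2 fold change of 0.88 (SE 1.30) lay within its error. It ran from 0.23 without Panx1 KO 2 to 2.32 without WT 1, and that of Npas2 from 0.31 to 2.34 without the same libraries. With all libraries it was 1.02 (SE 1.13) for Npas2, for Nfil3 0.24 (SE 0.618), for Cry2 0.02 (SE 0.166) and for Rora 0.07 (SE 0.113). The median over the 7 members was 0.24 against 0.01 over all genes. Of 13 lists of cell type markers, none had sums that separated the knockout from the wild-type libraries.

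Y198F was compared with controls to see what the loss of this tyrosine changes. Against the labelled controls Nfil3 and Clock fell and Cry2 rose, and these 3 of 7 members passed at an edgeR adjusted p-value under 0.05, as did 15.0% of all 16050 genes. Of all genes, 9.55% passed as higher and 5.48% as lower. Nfil3 stood at 5.65, 6.46 and 3.41 CPM in Y198F and at 20.4, 15.1 and 10.2 CPM in the controls. The ranges did not overlap, and the log2 fold change was -1.56 (SE 0.300, adjusted p 0.00716 in edgeR). Clock stood at 73.8, 85.1 and 57.7 CPM in Y198F and at 137, 104 and 119.5 CPM in the controls. All 3 mutant libraries lay below all 3 controls, with a log2 fold change of -0.74 (SE 0.149, adjusted p 0.00884 in edgeR). Cry2, whose product inhibits the BMAL1 pair, went the other way. It stood at 71.2, 65.3 and 69.8 CPM in Y198F and at 47.0, 53.8 and 47.0 CPM in the controls. The groups were again apart, with a log2 fold change of 0.48 (SE 0.101, adjusted p 0.00979 in edgeR).

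The other 4 members did not pass. Arntl stood at 24.1, 14.9 and 5.91 CPM in Y198F, all below its controls, with a log2 fold change of -1.79 (SE 0.510, adjusted p 0.0889 in edgeR). Npas2 had a log2 fold change of -1.60 (SE 0.621), Cry1 one of -0.61 (SE 0.230) and Rora one of -0.40 (SE 0.134), with edgeR adjusted p-values of 0.179, 0.0982 and 0.0656. Groups did not overlap in any of the 7 members, with 6 lower and 1 higher in Y198F. All genes without overlap made up 34.2%, with 15.2% lower and 19.0% higher. An unadjusted p under 0.05 was found for 6 of the 7 members and for 29.1% of all genes. The exact two-sided permutation p was 0.1 for each member, the smallest that 3 against 3 libraries allow. The median log2 fold change was -0.74 over the 7 members and 0.00 over all genes.

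**Figure D3:**
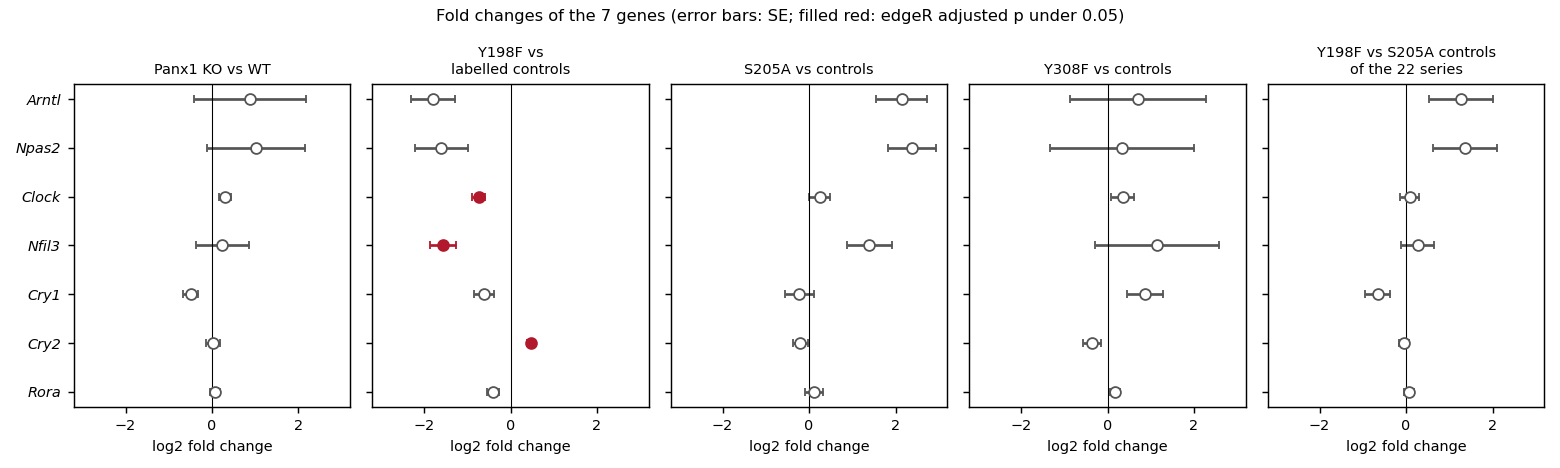
Log2 fold changes of the 7 genes in 5 comparisons, with bars of 1 standard error. Filled red points mark an edgeR adjusted p under 0.05, reached by Clock (-0.74), Nfil3 (-1.56) and Cry2 (0.48) in Y198F against its labelled controls and in no other panel.

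With each library left out in turn, Clock and Nfil3 kept their calls in all 6 fits, with log2 fold changes from -0.87 to -0.59 and from -1.79 to -1.30. With all 8 groups in one fit none of the 3 passed, while the log2 fold changes were -0.73 (SE 0.262) for Clock, -1.56 (SE 0.933) for Nfil3 and 0.48 (SE 0.194) for Cry2. With the library series as a further term the log2 fold change of Clock was -0.09 (SE 0.313) and that of Cry2 0.06 (SE 0.249), with that of Nfil3 at -0.96 (SE 1.36). Only S205A and its controls held libraries of both kinds. The series term therefore rests on S205A 1 and S205A control 4, set against the rest of their groups. Without Y198F control 3 the Cry2 edgeR adjusted p was 0.0701 and the genes past the threshold fell to 908, and without Y198F control 1 they were 1546. Arntl passed without Y198F 1 (edgeR adjusted p 0.0299) and without Y198F 3 (0.00218), and Npas2 passed without Y198F 3 (0.00796). DESeq2 called Arntl (adjusted p 0.0120) beside the 3, and 2668 genes in all against 2411 with edgeR.

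Other signals separated the same 6 libraries. Of the 13 marker lists, the sum was higher in Y198F for endothelium (4428 to 4879 CPM against 3340 to 4311 CPM) and lower for Schwann cells (77.6 to 91.6 CPM against 94.8 to 171 CPM) and neurons (0 to 0.212 CPM against 0.619 to 2.702 CPM). These are 3 of 13 lists, while 34.2% of all single genes had no overlap between the same groups. All 4 endothelial and all 4 Schwann markers were detected in every library, whereas the neuronal Snap25, Elavl4 and Syt1 were at 0 in 9, 17 and 14 of the 26. The part of these signals in the results was not tested. In arteries taken as bulk tissue, fewer cells of a type and less RNA per cell cannot be told apart.

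Against the 3 S205A controls of the 22 series, which come from another line and also serve the S205A comparison, none of the 7 members passed with edgeR, none had an unadjusted p under 0.05 (3.10% of all genes, of which none passed when adjusted, 0%), and DESeq2 called none. Clock stood at 86.3, 68.1 and 50.3 CPM in these controls, with a log2 fold change in Y198F of 0.08 (SE 0.220). Cry2 stood at 69.6, 66.4 and 77.4 CPM, with a log2 fold change of -0.05 (SE 0.110). Nfil3 stood at 5.80, 4.41 and 2.66 CPM, with a log2 fold change of 0.27 (SE 0.388). Each of these ranges overlapped that of Y198F, as in all 7 members, whereas 8.22% of all genes had no overlap. Arntl had a log2 fold change of 1.28 (SE 0.739) and Npas2 one of 1.36 (SE 0.747), opposite in sign to those against the labelled controls. The authors' deposited table for Y198F gave 1.097 for Arntl, 1.23 for Npas2, -0.11 for Clock and 0.39 for Nfil3. Its fold changes equalled, to within 0.000163 on the log2 scale over 18991 genes, those computed with all 4 S205A controls as reference.

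Of the 25 other clock genes listed for this report, 24 were tested in the Y198F comparison, 7 passed as higher and 1 as lower, against 9.55% and 5.48% of all 16050 genes. The genes with the smallest p were Nr1d1 (log2 fold change 1.92, SE 0.116), which encodes a repressor of Arntl, Bhlhe40 (0.96, SE 0.135), Usp2 (1.29, SE 0.251) and Dbp (4.10, SE 0.598), the D-box activator. Bhlhe41 (2.11, SE 0.477) and Tef (1.87, SE 0.386) followed. In edgeR the largest adjusted p-value among these 6 was 0.0351. Dbp stood at 97.6, 132 and 259 CPM in Y198F and at 4.81, 11.6 and 11.9 CPM in the controls, far apart. Against the S205A controls of the 22 series its log2 fold change was -0.50 (SE 0.399) and that of Nr1d1 was 0.02 (SE 0.138). The median over the 24 was 1.03 against the labelled controls and -0.19 against those of the 22 series.

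For S205A the question was what the loss of this serine changes. No member passed with edgeR, nor did any of the 15709 genes (0%), of which 451 (2.87%) had an unadjusted p under 0.05. Npas2 stood at 42.9, 29.8, 23.1 and 7.54 CPM in S205A and at 6.94, 4.94, 1.61 and 6.25 CPM in the controls. All 4 mutant libraries lay above all 4 controls. The groups did not overlap, in either direction, in 1.80% of all genes. For Npas2 this gave an exact two-sided permutation p of 0.0286, the smallest for 4 against 4. Its log2 fold change was 2.38 (SE 0.561), with an edgeR p of 0.00209 and an adjusted p of 1.00, while the DESeq2 adjusted p was 0.00140 and DESeq2 called 47 genes in all. The authors' deposited table for S205A, made with DESeq2, gave 2.38 on the log2 scale for Npas2 (adjusted p 0.486) and 2.14 for Arntl (adjusted p 0.625). Neither passed there, while 96 of 19399 genes did. The mean signal of each member was the same in all 4 of the authors' comparisons, so it covered libraries of other lines. The comparison made here held only S205A and its controls, so the 2 sets of p-values are not alike. Arntl stood at 57.7, 26.6, 28.6 and 10.6 CPM in S205A and at 11.2, 5.23, 2.05 and 9.37 CPM in the controls. Only S205A 4 lay within the control range, and its log2 fold change was 2.14 (SE 0.589, p 0.00535 and adjusted p 1.00 in edgeR). Nfil3 stood at 19.2, 12.3, 6.69 and 2.96 CPM against 5.80, 4.41, 2.66 and 2.801 CPM, with a log2 fold change of 1.39 (SE 0.520, p 0.0242 in edgeR). These 3 members were those with an unadjusted p under 0.05, and the groups of the other 4 overlapped.

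Within the 22 series, 3 libraries against 3, the log2 fold changes were 2.16 (SE 0.680) for Npas2, 1.83 (SE 0.663) for Arntl and 0.77 (SE 0.532) for Nfil3, and no gene passed with edgeR. S205A control 1, the library with few Panx1 counts, also had the lowest endothelial marker sum of the 26 libraries (1045 CPM), and S205A control 2 had the highest (8967 CPM). Without control 1 Arntl had 2.47 and Npas2 2.60, with edgeR adjusted p-values of 0.872 and 0.798, and without control 2 they had 2.02 and 2.37. Clock had a log2 fold change of 0.25 (SE 0.241), Cry2 one of -0.21 (SE 0.173), Cry1 one of -0.22 (SE 0.342) and Rora one of 0.11 (SE 0.206) over the 8 libraries. The fibroblast marker sum (Pdgfra, Col1a1, Dcn and Lum, each detected in every library) was 1149 to 3627 CPM in S205A and 722 to 1073 CPM in the controls, the only one of 13 lists whose sums did not overlap. Its part in the result was not tested. None of the 24 other clock genes tested passed. Of these, 3 had an unadjusted p under 0.05 in edgeR: Nr1d2 at -0.72 (SE 0.2499), Usp2 at -1.07 (SE 0.421) and Hlf at -1.14 (SE 0.494). The median of the 24 was -0.39, against 0.25 over the 7 members and -0.01 over all genes.

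For Y308F it was the loss of the other tyrosine. No member passed with edgeR or DESeq2, none had an unadjusted p under 0.05, and none of 16037 genes passed with edgeR (0%), of which 4.40% had an unadjusted p under 0.05. Arntl had a log2 fold change of 0.71 (SE 1.58), from the values of 1.57 to 68.5 CPM in Y308F and 4.79 to 66.1 CPM in the controls given above, and it ran from 0.22 without Y308F control 3 to 2.73 without Y308F control 1. Npas2 stood at 1.31, 37.7 and 39.3 CPM in Y308F and at 54.0, 6.54 and 1.27 CPM in the controls. In each group the same library was apart from the other 2 for Arntl and for Npas2, Y308F 1 as the low one and Y308F control 1 as the high one. The Npas2 log2 fold change was 0.34 (SE 1.66), and it ran from -0.21 without Y308F control 3 to 2.75 without Y308F control 1.

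Nfil3 followed the same libraries, with 1.05, 21.6 and 24.6 CPM in Y308F and 17.9, 1.54 and 1.93 CPM in the controls, and a log2 fold change of 1.14 (SE 1.43), from 0.67 without Y308F control 2 to 3.196 without Y308F control 1. Cry1 stood at 11.1, 26.8 and 29.9 CPM in Y308F and at 18.4, 9.42 and 9.64 CPM in the controls. Y308F 2 and 3 were the highest Cry1 libraries of all 26, yet the groups overlapped and the log2 fold change was 0.86 (SE 0.423, adjusted p 0.940 in edgeR). Cry2 had -0.36 (SE 0.210), Clock 0.35 (SE 0.271) and Rora 0.17 (SE 0.116). Groups overlapped in all 7 members and were apart in 10.7% of all genes. No marker list separated the Y308F libraries from their controls.

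Whether a member changed differently under 2 mutations was tested directly in 6 pairs of comparisons. The single call was Clock between the knockout and Y198F, where the effects of 0.30 and -0.74 differed by 1.04 (SE 0.223, edgeR adjusted p 0.00994). Of all 17347 genes, 11.6% passed in this pair, and 4 of the 7 members had an unadjusted p under 0.05, as did 26.4% of all genes. With all 8 groups in one fit the difference was 1.01 (adjusted p 0.134), and with the library series as a term it was 0.37 (SE 0.384). As stated above, that term rests on the S205A line alone. In the other 5 pairs no member passed with edgeR. Between the knockout and S205A 0.00562% of genes passed, and at an unadjusted p under 0.05 the share was 4.16%, with no member. Between the knockout and Y308F these shares were 0.0116% and 3.10%, with 1 member at an unadjusted p under 0.05, Cry1. Between S205A and Y308F they were 0% and 3.49%, with no member. The largest differences were those of Y198F and S205A in Npas2, -3.98 (SE 0.887), and in Arntl, -3.93 (SE 0.874), each with an edgeR adjusted p of 0.170. No gene of 17479 passed in that pair (0%), 14.3% had an unadjusted p under 0.05, and 5 members were among them. Without S205A control 4 the pair had 892 genes and 3 members past the threshold. Between Y198F and Y308F 4 members had an unadjusted p under 0.05, and the smallest edgeR adjusted p was 0.0581, for Cry2, where 5.70% of genes passed (22.3% at an unadjusted p under 0.05). The full fit called 979 genes and no member in that pair, against 821 genes and 3 members without Y308F 1 and 1062 genes and 1 member without Y308F control 1.

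Each member was set against Arntl across libraries. Correlations were measured on log2 CPM within the 17 libraries outside the 22 series and within the 9 inside it, 12 relations in all with p-values adjusted over them. For Npas2 Pearson's r was 0.969 over the 17 libraries (Spearman's rho 0.968, permutation p 1e-05, the smallest that 100000 resamples give) and 0.959 without the 2 libraries farthest from the median of Arntl. Over the 9 libraries it was 0.980 (rho 0.950, exact permutation p 4.41e-05), and 0.964 without 2. Nfil3 followed Arntl with r of 0.911 (rho 0.926, permutation p 1e-05) and 0.792 (rho 0.867, exact permutation p 0.0107). Without 2 libraries these were 0.910 and 0.727. Clock had r of 0.861 (permutation p 5e-05; rho 0.833) and 0.814 (exact permutation p 0.00674), or 0.766 and 0.673 without 2. Its rho over the 9 libraries was 0.650 and did not pass (exact permutation p 0.0666, adjusted 0.0998). The p-values given beside r in these sentences are those of r, and adjusted they ran from 6e-05 to 0.0184 for the 6 values.

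Cry2 went against Arntl in the 17 libraries, with r of -0.839 (rho -0.909, permutation p 5e-05) and -0.910 without 2. In the 9 libraries its r was -0.428 (exact permutation p 0.251). For Cry1 the sign differed between the library sets: r was 0.548 over the 17 (rho 0.654, permutation p 0.0232, adjusted 0.0310) and -0.735 over the 9 (exact permutation p 0.0225, adjusted 0.0310), where rho was -0.517 (exact permutation p 0.162). The negative value rests on the 2 libraries farthest from the median, since it was -0.268 without them. Rora showed no relation past the threshold, with r of 0.276 (permutation p 0.284) and -0.120 (exact permutation p 0.755). With group means removed the r of Npas2 was 0.972 and 0.967, so its relation held within genotypes.

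**Figure D4:**
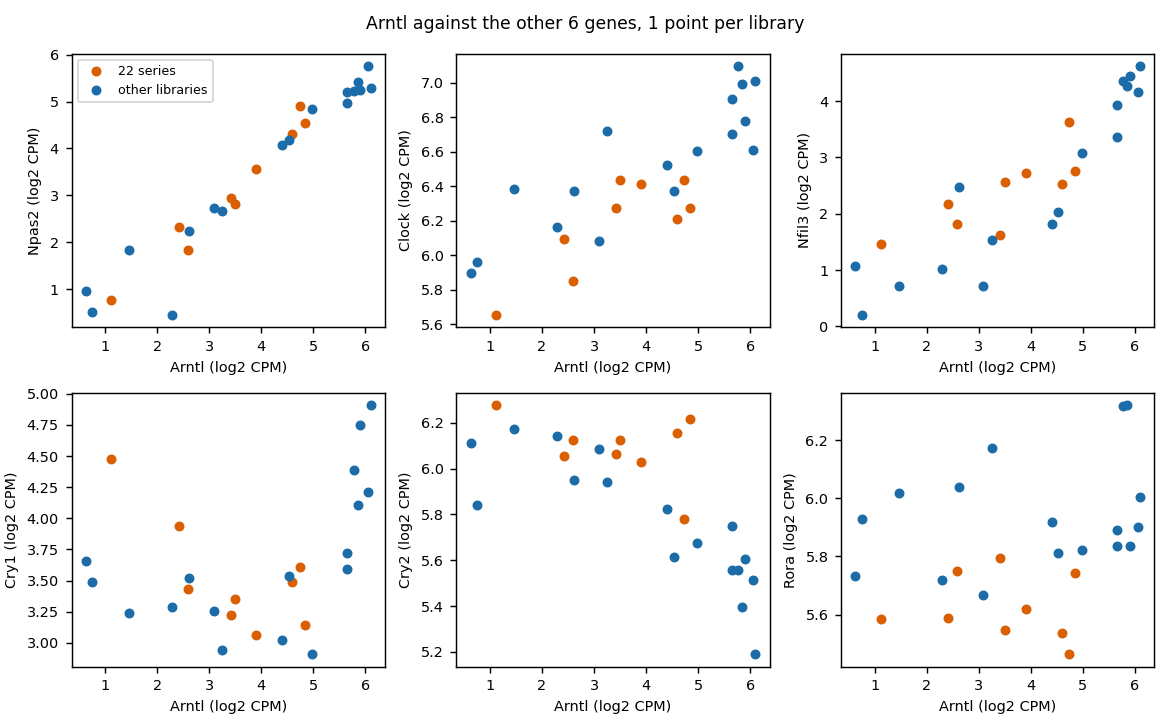
Arntl against each of the other 6 genes on log2 CPM axes, 1 point per library, coloured by library series. Npas2, Nfil3 and Clock climb with Arntl in both sets, Cry2 declines with it in the 17 other libraries, and Rora shows no slope beyond its scatter.

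A ranking of 12525 genes by Pearson's r with Arntl over the 26 libraries, with the mean of each library set removed, put 3 members among the 6 most alike. Npas2 had r of 0.970, Rasl11a 0.937, Leo1 0.923, Nfil3 0.889, Glipr2 0.856 and Clock 0.850. At the other end stood Ciart (-0.952), Tef (-0.947), Per3 (-0.946), Tspan4 (-0.944), Bhlhe41 (-0.934) and Hlf (-0.918). Of the 23 other clock genes ranked, 8 were among the 10 lowest places and 12 among the 30 lowest. Cry2 took place 30 from the low end with -0.779. These values describe the 26 libraries, which share groups and depth, and carry no test.

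The mirror was visible library by library. Dbp, the D-box activator, stood at 222 CPM in Y308F 1, where Arntl was at 1.57 CPM, and at 1.73 and 2.85 CPM in Y308F 2 and 3, where Arntl was at 59.8 and 68.5 CPM. In the Y308F controls Dbp stood at 3.45, 193 and 214 CPM beside 66.1, 8.39 and 4.79 CPM of Arntl. Low Dbp and high Arntl thus fell in the same libraries in both genotypes. Among the wild-type libraries Dbp stood at 105, 169 and 256 CPM while Arntl stood at 22.99, 6.04 and 1.44 CPM. The Nr1d1 level was less tightly tied, with r of -0.758 in the 17 libraries and -0.334 in the 9. Over all libraries Nr1d1 ran from 21.7 CPM in Y308F 3 to 432 CPM in S205A control 1.

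**Figure D5:**
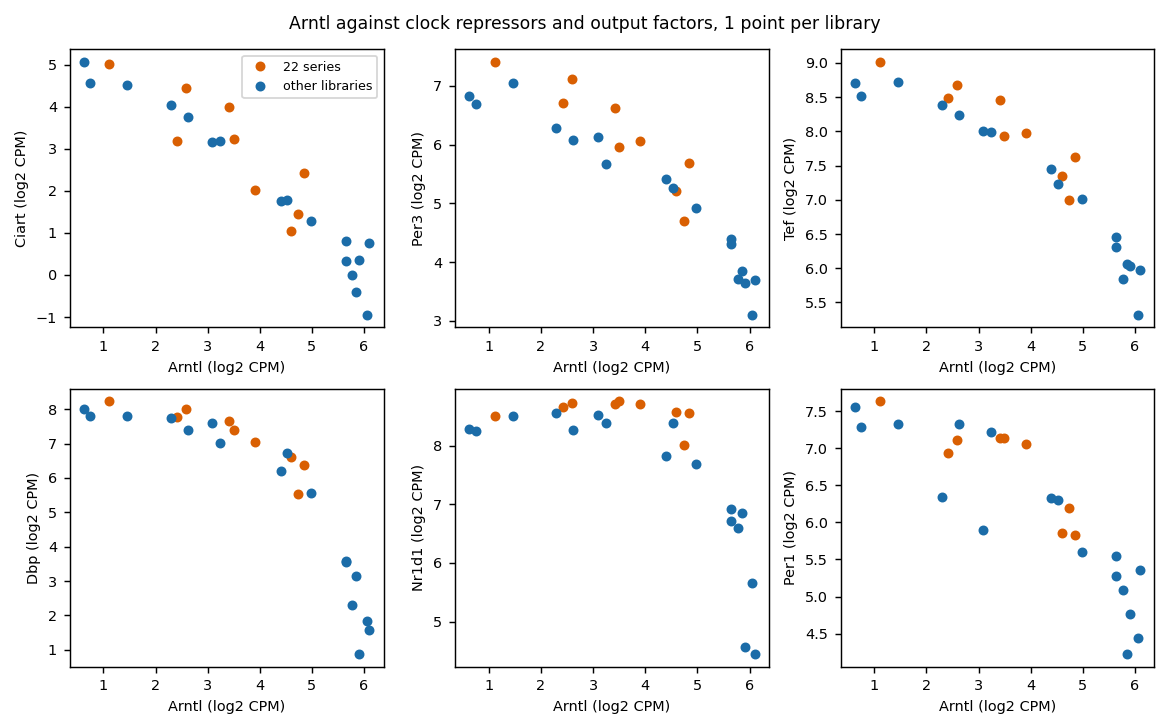
Arntl against 6 clock repressors and D-box activators on log2 CPM axes, 1 point per library, coloured by library series. In both library sets Ciart, Per3, Tef and Dbp are lower where Arntl is higher (r from -0.863 to -0.972), and for Nr1d1 r was -0.758 in the 17 other libraries and -0.334 in the 22 series.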

How the data were processed

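RNA was purified on columns and read as pairs of 150 bases, per the labels' protocols. Per the submitters' processing notes, the authors aligned reads to GRCm39 with STAR 2.7.9a and counted them per gene with featureCounts (Rsubread 2.20.0), and the annotation release is not given in the sources used here. The main deposited table gives raw integer counts for 57010 gene identifiers. A second deposited table holds a normalized signal, counts divided by a size factor. The authors' 4 comparison tables (DESeq2 1.46.0) give for each gene the mean normalized signal, the log2 fold change and its error, a test score and p-values.

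Groups were taken from titles and genotypes. The 7 members, the list of other clock genes, the marker lists and the rule for named genes (members, listed clock genes past the threshold with the smallest p, a fixed set of clock repressors and outputs, and the 6 genes most and least like Arntl) were chosen with earlier results of these data known. Each mutant was compared with its controls, on counts, with edgeR 4.0.16 in R 4.3.3 (quasi-likelihood, TMM, filterByExpr, 2 groups per fit), and p-values were adjusted by Benjamini-Hochberg over all genes tested. Printed CPM values use TMM factors over 26 libraries, and fold changes come from each fit. Log2 CPM used a prior count of 2. Transcript lengths and coordinates are from GENCODE vM39. Alternatives were DESeq2 1.42.0, limma 3.58.1 (voom), other samples or terms, no filter, the replicate block and each library left out. Replicate numbers did not pair the samples: same-numbered deviations correlated from -0.284 to 0.225. The edgeR step was also run on simulated counts, drawn independently for each gene and without a library series. That run therefore says nothing of series effects or of genes that vary together.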

Additional observations from a re-analysis of the deposited data

Results flagged for a closer look

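Rora in the S205A controls was flagged because 1 library stood far from the other 3. S205A control 4, the only one of the group outside the 22 series, had 72.1 CPM, whereas controls 1 to 3 had 46.6, 48.0 and 47.9 CPM. Its gap took a share of 0.932 of the range on the log2 CPM scale, above Dixon's limit for 4 samples. Over all libraries Rora ran from 44.0 to 55.4 CPM in the 22 series and from 50.7 to 79.8 CPM outside it. Chance flags about 1 in 20 such groups.

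Clock was flagged because its effects in the knockout and in Y198F differed in a direct test, by 1.04 on the log2 scale (SE 0.223, edgeR adjusted p 0.00994). Clock was 83.4 to 97.3 CPM in the knockout and 59.6 to 82.9 CPM in wild type, and 57.7 to 85.1 CPM in Y198F and 104 to 137 CPM in its controls. In this pair 11.6% of all genes passed. The difference ran from 0.90 to 1.18 with each library left out in turn, but the call ended with all 8 groups in one fit (1.01, edgeR adjusted p 0.134) and with the library series as a term (0.37, SE 0.384). The library series could not be told apart from the Y198F mutation in this pair, and the series term rests on the S205A line alone.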

How the results depend on the processing

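Most values kept their direction and their side of the threshold. Members past the threshold in Y198F were 3, and 5 with limma voom (Arntl and Npas2 added, 2835 genes in all), 5 without a filter (Cry1 and Rora added, 3158 genes in all), 0 with all 8 groups in one fit and 0 with the library series as a term. Genes past it there were 2411, against 922 and 0 in those last fits. The series term rests on the S205A line alone, as stated above. In the knockout comparison 5 genes passed, 117 with DESeq2, 3 with voom and 243 without a filter. DESeq2 called 47 genes and 1 member, Npas2, in S205A, where edgeR called 0. Without a filter 7 genes passed in Y308F. In Y198F against the S205A controls of the 22 series, DESeq2 called 37 genes and edgeR without a filter 9. For differences of effects, the knockout and Y198F had 2004 genes, 108 with all 8 groups and 3 with the series term, and members went from 1 to 0 and 0. The knockout and S205A had 1, 2 and 3 genes in these fits. Y198F and S205A had 3 genes with all 8 groups, and Y198F and Y308F went from 979 to 0 and 0. Cry2 in the knockout changed sign, to -0.00199 with all 8 groups and -0.00201 with the series term, as did Rora in Y198F, to 0.23 with the series term. The r of Cry1 with Arntl in the 22 series was -0.541 with group means removed. The longest transcript as length gave means of 5.31 for Arntl, 8.89 for Clock, 14.4 for Cry2 and 5.21 CPM per kb for Rora. Apart from fewer samples or more groups in a fit, the cause was not tested.

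With each library left out, genes past the threshold ran from 1 to 5 in the knockout, 908 to 2128 in Y198F, 0 to 1 in S205A and 0 to 1 in Y308F, and members in Y198F from 2 to 5. For differences of effects they ran from 1043 to 2024 (knockout and Y198F), 0 to 3 (knockout and S205A), 2 to 5 (knockout and Y308F), 0 to 892 with 0 to 3 members (Y198F and S205A) and 320 to 1227 with 0 to 3 members (Y198F and Y308F). Signs changed within these ranges of log2 fold change: Nfil3 -0.60 to 0.63 and Cry2 -0.15 to 0.13 in the knockout, Cry1 -0.46 to 0.10 and Rora -0.0756 to 0.29 in S205A, Npas2 -0.21 to 2.75 in Y308F, and Clock -0.0934 to 0.28 and Cry2 -0.10 to 0.0181 in Y198F against the 22 series controls. Where a group kept few libraries, the remaining ones were assumed to vary alike.

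With the replicate number as a block, 18 genes passed in the knockout, 1760 genes and 3 members in Y198F, and 0 genes in S205A and in Y308F, and no call of a member changed. The samples share only a number. Their same-numbered deviations correlated from -0.0785 to 0.225 in the knockout line, from -0.0195 to 0.104 in the Y198F line, from -0.284 to 0.132 in the S205A line and from -0.137 to 0.0265 in the Y308F line.

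Counts of 20 to 28 reads limit the lowest values of Nfil3, Npas2 and Arntl. Groups of 3 libraries with an SE above 1 on the log2 scale could not show changes of Arntl or Npas2 in the knockout and Y308F lines short of several-fold. The hour of collection is not given, and its part was not tested.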
